A study of Homo sapiens with 9 samples.

Results

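The genes described here are 10 members of the transforming growth factor beta (TGF-beta) family and its pathway, found by exact match of their symbols (TGFB1, TGFB2, TGFBR1, TGFBR2, SMAD3, SMAD7, SKIL, TGFBI, LTBP1 and INHBA) among 36343 genes in the count table. All 10 were on a single row and passed the filter on low counts. The cells were SKOV-3, an established human ovarian adenocarcinoma line, with no gene change or drug named in the labels, kept for 3 days on hydrogel substrates with a stiffness of 0.5, 4 or 25 kPa. Each gel had 3 RNA libraries, made from poly(A) RNA and numbered 1, 2 and 3 on 0.5 and 4 kPa and 2, 3 and 4 on 25 kPa. The labels do not say whether these came from separate cultures, so p-values measure the spread between libraries, which may be technical.

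TGF-beta ligands are secreted as latent complexes, in which the mature growth factor stays bound to its own propeptide and, through it, to a latent TGF-beta binding protein (LTBP) that anchors it in the extracellular matrix. Released ligand brings the type II receptor TGFBR2 together with the type I receptor TGFBR1, which phosphorylates SMAD2 and SMAD3, and these enter the nucleus with SMAD4. SMAD7 and SKIL restrain the signal, and TGFBI is a secreted matrix protein named for its induction by TGF-beta. In epithelial cancer cells the pathway is known for its part in growth control and in the epithelial-mesenchymal transition.

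Values in CPM are counts scaled to the TMM-normalised size of each library and compare libraries for a gene, whereas values in FPKM are also divided by gene length and compare genes. Library totals were 19609740 to 21033433 counts. Calls (higher or lower) need a Benjamini-Hochberg adjusted p under 0.05 in the quasi-likelihood test of edgeR, fitted on 16335 genes in all 9 libraries. Each log2 fold change sets the softer gel over the stiffer one, so positive values are higher on the softer gel, and SE is its standard error. The replicate 3 libraries of 0.5 and 4 kPa stood apart from the other libraries of their gels. Pairs that held one of them had a chi-square per degree of freedom of 13.1 to 24.5 over genes, against 3.20 and 3.08 for the pair of replicates 1 and 2 on 0.5 and 4 kPa and 3.79 to 11.9 for the 25 kPa pairs. The epithelial markers of the line were present, with ERBB2 at 2921 to 4293 CPM and PAX8 at 184 to 231 CPM. Between 0.5 and 25 kPa, where 6.69% of all genes tested were called, 1 of 8 epithelial genes was higher (ERBB2) and 1 lower (KRT7). Of the 2 endothelial genes tested, 1 was higher (PECAM1) and 1 lower (VWF). Of the 5 immune genes in the table the summed level was at most 1.01 CPM, with CD3E at 0 in all libraries, and the 4 endothelial genes summed to at most 2.18 CPM. The 8 fibroblast genes summed to 57.4 to 69.2 CPM on 0.5 kPa, 60.5 to 66.4 CPM on 4 kPa and 56.2 to 60.1 CPM on 25 kPa, most of it COL1A1, and DCN and FAP were at most 0.147 CPM. On 0.5 against 25 kPa, 2 of the 6 fibroblast genes tested (COL3A1 and LUM) were higher and 1 (PDGFRB) lower, beside the same 6.69%. The part of any of these marker genes in the results was not tested. In such bulk RNA, fewer cells of a kind and less RNA per cell cannot be told apart.

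LTBP1, TGFBR2 and TGFB2 were the genes of the 10 that passed the test between gels. On 0.5 kPa, LTBP1 and TGFBR2 were higher and TGFB2 was lower than on 25 kPa, so that 3 of the 10 genes were called, against 6.69% of all genes tested. The median log2 fold change of the 10 was 0.08, against 0.00 over all genes. Between 0.5 and 4 kPa, 1 of the 10 was called (LTBP1, higher on 0.5 kPa), against 2.05% of all genes, with medians of 0.05 and 0.01. Between 4 and 25 kPa, 0 of the 10 were called, against 0.9% of all genes, with medians of 0.11 and -0.01. In that comparison 3 of the 10 (LTBP1, SMAD7 and SMAD3) had an unadjusted p under 0.05 in edgeR, and DESeq2 also called 0. The libraries of the 2 gels did not overlap for 5 of the 10 genes between 0.5 and 25 kPa (30.3% of all genes), for 4 between 0.5 and 4 kPa (18.4%) and for 4 between 4 and 25 kPa (20.1%).

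**Figure D1:**
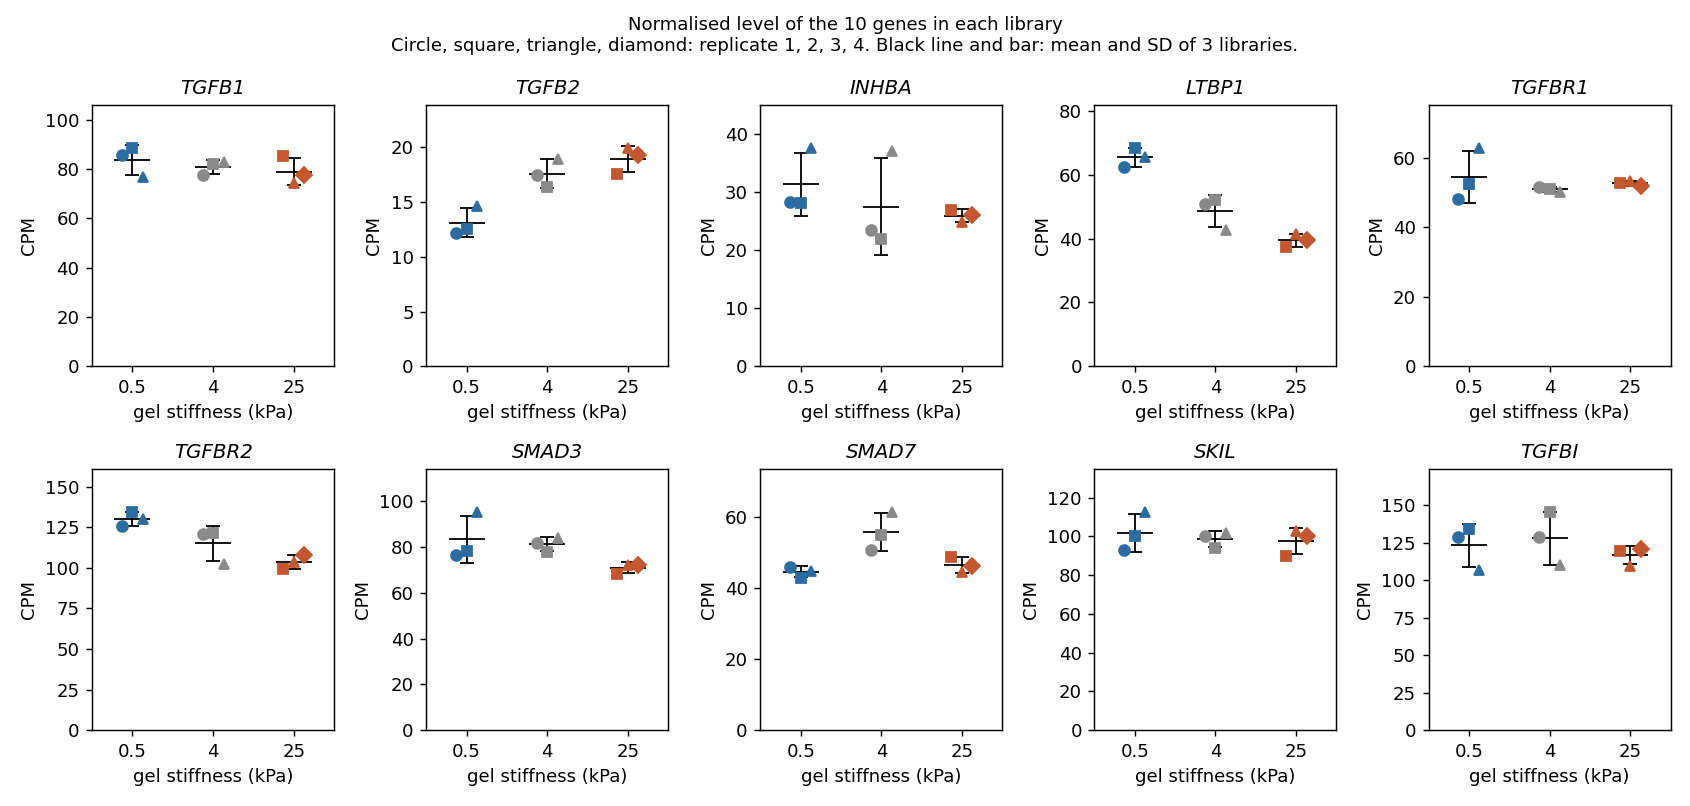
Level of each of the 10 genes (CPM, vertical axis from 0) in every library on 0.5, 4 and 25 kPa gels, with the mean and SD of 3 libraries. LTBP1 lies at 62.4 to 68.3 CPM in the 0.5 kPa libraries and at 37.4 to 41.3 CPM in the 25 kPa libraries, while TGFB2 is lowest on 0.5 kPa and SMAD7 is highest on 4 kPa.

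Sequences before the start sites of LTBP1 and TGFB2 are shown because these genes had the largest differences and because the LTBP1 gene has separate start regions for a long and a short form. They are RefSeq sequences of build GRCh38.p14, each of 250 bases ending just before a RefSeq start, in lower case with motif matches in capitals. The motifs searched on both strands were the SMAD palindrome GTCTAGAC, the SMAD element CAGACA and the TEAD motif GGAATG. The AP-1 motif TGANTCA was searched as well. No searched motif overlaps another in these windows. The first of these lines is the long-form start of LTBP1 at chr2:32946703-32946952 on the plus strand, the second is 1 of 2 short-form starts of LTBP1, at chr2:33134119-33134368 on the plus strand, and the third is TGFB2 at chr1:218345086-218345335 on the plus strand.
LTBP1 long form: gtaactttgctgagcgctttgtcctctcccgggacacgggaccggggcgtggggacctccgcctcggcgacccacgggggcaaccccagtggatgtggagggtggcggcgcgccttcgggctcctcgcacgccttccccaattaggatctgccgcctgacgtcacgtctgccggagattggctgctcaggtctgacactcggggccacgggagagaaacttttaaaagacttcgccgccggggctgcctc
LTBP1 short form: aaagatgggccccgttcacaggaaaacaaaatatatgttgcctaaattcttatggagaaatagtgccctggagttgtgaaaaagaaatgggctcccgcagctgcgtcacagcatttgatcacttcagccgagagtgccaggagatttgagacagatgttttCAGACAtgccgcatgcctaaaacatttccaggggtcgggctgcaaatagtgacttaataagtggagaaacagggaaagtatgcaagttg
TGFB2: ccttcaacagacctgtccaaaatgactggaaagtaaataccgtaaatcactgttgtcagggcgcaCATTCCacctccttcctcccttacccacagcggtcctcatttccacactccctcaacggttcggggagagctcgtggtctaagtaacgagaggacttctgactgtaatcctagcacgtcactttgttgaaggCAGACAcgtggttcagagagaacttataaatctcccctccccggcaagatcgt
The long-form window of LTBP1 held 0 of the 4 motifs. The short-form window held a SMAD element 89 bases before its start, and the window of the other short-form start, which begins at base 33134596, held one 121 bases before it. The TGFB2 window held a SMAD element 53 bases before its start and a TEAD motif 185 bases before it. TGFBR1 and SMAD3, which were not called, have several windows each, most of them with no match. The others held SMAD elements in both genes, a TEAD motif in TGFBR1 and an AP-1 motif in SMAD3. The windows of TGFBR2, which was called, held 0 of the 4 motifs. Those of TGFB1, SMAD7, SKIL, TGFBI and INHBA, which were not called, also held 0. Over all 35116 RefSeq windows of this length, 13.61% held a SMAD element, 11.89% a TEAD motif, 6.57% an AP-1 motif and 0.18% the SMAD palindrome. These shares are per window, and a gene with several windows has more places for a match. A match describes letters and is not a binding site, and the gene tables place the first base of TGFB2 at 218346235, downstream of this RefSeq start.

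Among the ligands, TGFB2 was called between 0.5 and 25 kPa, and TGFB1 and INHBA were not. TGFB2 (ENSG00000092969, hg38 chromosome 1 from 218346235 to 218444619, plus strand) encodes a secreted ligand that binds TGFBR2 well only with the help of the co-receptor betaglycan. It had 12.2, 12.6 and 14.7 CPM on 0.5 kPa, 17.5, 16.4 and 19.0 CPM on 4 kPa, and 17.6, 19.9 and 19.3 CPM on 25 kPa. Every 0.5 kPa library lay below every library of the other gels, and the 4 and 25 kPa libraries overlapped. TGFB2 was lower on 0.5 than on 25 kPa, with a log2 fold change of -0.53 (SE 0.10, edgeR adjusted p = 0.0091). Without 25 kPa replicate 4 that call was lost (log2 fold change -0.52, edgeR adjusted p = 0.0507). For 0.5 against 4 kPa TGFB2 had a log2 fold change of -0.42 (SE 0.10, edgeR adjusted p = 0.0546), which passed without 0.5 kPa replicate 3 (-0.51, edgeR adjusted p = 0.033) and in DESeq2 (-0.43, adjusted p = 0.0269). For 4 against 25 kPa it was -0.10, with a 95% interval of -0.32 to 0.11.

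TGFB1 (ENSG00000105329, chromosome 19 from 41301587 to 41353911, minus strand), the most widely studied ligand of the family, had the highest mean gene FPKM of the 10 genes, with a range that overlapped that of TGFBR2. It stood at 85.8, 88.4 and 76.8 CPM on 0.5 kPa, 77.7, 82.2 and 82.9 CPM on 4 kPa, and 85.2, 74.2 and 77.6 CPM on 25 kPa. The 3 gels overlapped, and for 0.5 against 25 kPa the log2 fold change was 0.08, with a 95% interval of -0.09 to 0.25 (edgeR adjusted p = 0.575). HNRNPUL1, CCDC97 and TMEM91 overlap TGFB1 on the opposite strand, with 52420, 9662 and 604 counts in the 9 libraries against 14791 for TGFB1. The sources used here do not give the strand setting of the counting, so the reads of these genes cannot be told apart with certainty.

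INHBA (ENSG00000122641, chromosome 7 from 41667168 to 41705834, minus strand) encodes the beta A subunit of activin A, a related ligand that signals through activin receptors to SMAD2 and SMAD3. It had 28.3, 28.0 and 37.5 CPM on 0.5 kPa, 23.4, 21.95 and 37.1 CPM on 4 kPa, and 26.8, 24.7 and 26.1 CPM on 25 kPa. The high value on 0.5 kPa and that on 4 kPa both came from the replicate 3 library. INHBA had a log2 fold change of 0.27 for 0.5 against 25 kPa (SE 0.18, edgeR adjusted p = 0.41), although the libraries of these gels did not overlap. Without 4 kPa replicate 3 it was called higher on 0.5 than on 4 kPa (log2 fold change 0.47, edgeR adjusted p = 0.0416), against 0.19 (adjusted p = 0.714) with all libraries. Without the replicate 3 libraries of both gels that difference was 0.31 (edgeR adjusted p = 0.049).

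LTBP1 (ENSG00000049323, chromosome 2 from 32946972 to 33399509, plus strand), the binding protein that holds the latent ligand in the matrix, had the largest change of the 10 genes. It had 62.4, 68.3 and 65.7 CPM on 0.5 kPa, 50.8, 52.2 and 42.8 CPM on 4 kPa, and 37.4, 41.3 and 39.5 CPM on 25 kPa. No library of a gel overlapped with one of another gel, and the 4 kPa libraries lay between the others. Its mean with SD (n = 3) was 65.4 ± 2.9 CPM on 0.5 kPa, 48.6 ± 5.0 CPM on 4 kPa and 39.4 ± 1.9 CPM on 25 kPa. LTBP1 was 1.66-fold higher on 0.5 than on 25 kPa (log2 fold change 0.73, SE 0.09, edgeR adjusted p = 0.000244), and that call held in each of 9 fits without 1 library, with log2 fold changes of 0.69 to 0.78. It was 1.35-fold higher on 0.5 than on 4 kPa (log2 fold change 0.43, SE 0.09, edgeR adjusted p = 0.0176), a call that was lost without 0.5 kPa replicate 2 (0.40, adjusted p = 0.106). For 4 against 25 kPa the log2 fold change was 0.30 (SE 0.09, edgeR adjusted p = 0.112), and LTBP1 was called there without 4 kPa replicate 3 (0.38, adjusted p = 0.0219). With transcript counts summed per gene, the LTBP1 value for 0.5 against 25 kPa was 0.87 and was not called (edgeR adjusted p = 0.0859), nor were those of TGFB2 (-0.53, adjusted p = 0.145) and TGFBR2 (0.32, adjusted p = 0.186).

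The deposited transcript levels split LTBP1 and TGFB2 further, as a description with no test, since these levels are estimates. The long form, LTBP1-203, which starts at base 32946972, made up 83.5% of the transcript FPKM of LTBP1. It stood at 7.20, 8.58 and 7.38 FPKM on 0.5 kPa, 6.46, 5.33 and 6.13 FPKM on 4 kPa, and 5.01, 4.63 and 1.69 FPKM on 25 kPa. The 3 gels did not overlap in this form, whose first base lies just after the long-form window printed above. LTBP1-204, a short form that starts at base 33134657, downstream of the short-form start printed above, had 1.00, 0.738 and 0.670 FPKM on 0.5 kPa, 0.701, 0.385 and 0.222 FPKM on 4 kPa, and 0.141, 0.0907 and 1.15 FPKM on 25 kPa. In 25 kPa replicate 4 the long form was at its lowest and the short form at its highest, so the gels overlapped for the short form.

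TGFB2-202 and TGFB2-201 share their first and last bases and differ within the gene. TGFB2-202, with 77.7% of the transcript FPKM, had 2.15, 2.56 and 2.96 FPKM on 0.5 kPa, 2.53, 2.87 and 3.23 FPKM on 4 kPa, and 2.17, 3.24 and 3.21 FPKM on 25 kPa, and its gels overlapped. TGFB2-201, with 20.8%, had 0.396, 0.149 and 0.224 FPKM on 0.5 kPa, 1.23, 0.684 and 0.915 FPKM on 4 kPa, and 1.39, 0.958 and 0.726 FPKM on 25 kPa. Its 0.5 kPa libraries were all below those of the other gels. The levels of TGFBR2-201 and TGFBR2-202, the forms of the receptor, averaged 21.3 and 10.1 FPKM on 0.5 kPa, 19.7 and 8.45 FPKM on 4 kPa, and 16.7 and 7.60 FPKM on 25 kPa. TGFB1-201 and SMAD3-201 made up 98.0% and 91.4% of the transcript FPKM of their genes.

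**Figure D2:**
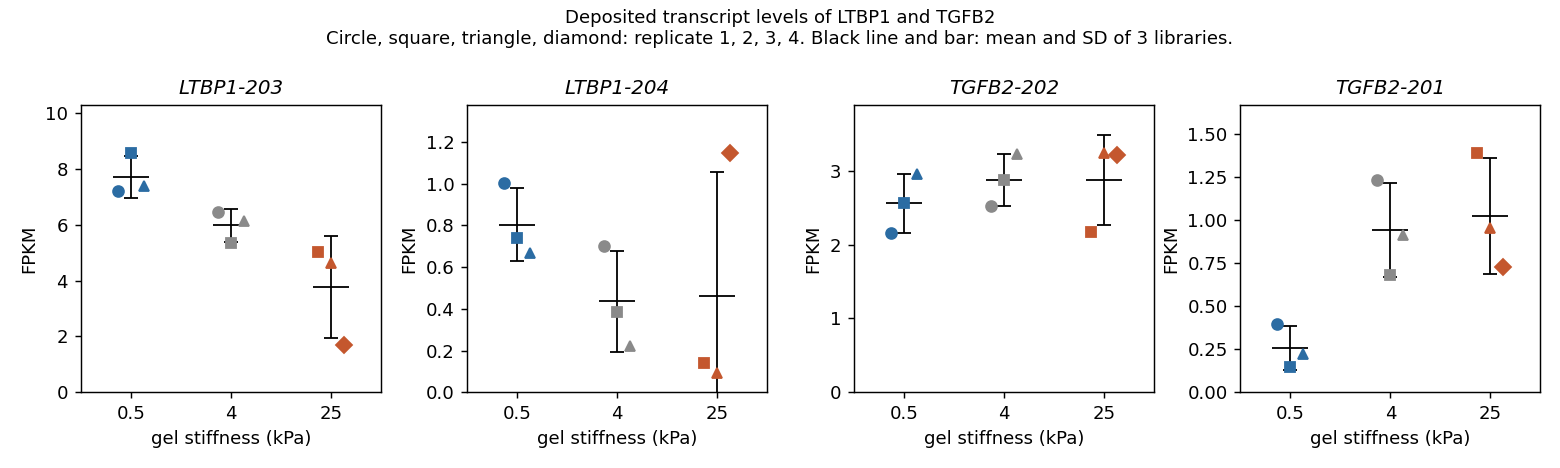
Deposited FPKM (vertical axis from 0) of 2 transcripts of LTBP1 and 2 of TGFB2 in every library on 0.5, 4 and 25 kPa gels, with the mean and SD of 3 libraries. The long form LTBP1-203 lies at 7.20 to 8.58 FPKM on 0.5 kPa and at 1.69 to 5.01 FPKM on 25 kPa, and TGFB2-201 lies at 0.149 to 0.396 FPKM on 0.5 kPa and at 0.726 to 1.39 FPKM on 25 kPa.

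Of the receptors, TGFBR2 was higher on the softest gel and TGFBR1 did not pass the test in any comparison. TGFBR2 (ENSG00000163513, chromosome 3 from 30606502 to 30694142, plus strand), the type II receptor that binds the ligand first, had 126, 134 and 130.2 CPM on 0.5 kPa, 121, 122 and 102 CPM on 4 kPa, and 99.2, 104 and 108 CPM on 25 kPa. The 0.5 kPa libraries lay above all others, and the 4 and 25 kPa libraries overlapped through 4 kPa replicate 3. TGFBR2 was 1.25-fold higher on 0.5 than on 25 kPa (log2 fold change 0.33, SE 0.08, edgeR adjusted p = 0.0262). That call held in 4 of 9 fits without 1 library, among them the fit without 0.5 kPa replicate 3. Without 0.5 kPa replicate 1 or 2 the edgeR adjusted p was 0.0524 or 0.109. Without 25 kPa replicate 2, 3 or 4 it was 0.0977, 0.0639 or 0.0827. For 0.5 against 4 kPa the log2 fold change was 0.18 (edgeR adjusted p = 0.337), and for 4 against 25 kPa it was 0.15 (edgeR adjusted p = 0.405). TGFBR2 was called higher on 4 than on 25 kPa (0.24, edgeR adjusted p = 0.0347) without the replicate 3 libraries of 0.5 and 4 kPa.

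TGFBR1 (ENSG00000106799, chromosome 9 from 99104038 to 99154192, plus strand), the type I receptor kinase that passes the signal to the SMADs, had 48.2, 52.4 and 62.8 CPM on 0.5 kPa, 51.7, 51.0 and 50.1 CPM on 4 kPa, and 52.8, 53.3 and 52.0 CPM on 25 kPa. The spread on 0.5 kPa, in which replicate 3 was highest, covered the values of both other gels. For 0.5 against 25 kPa the log2 fold change was 0.05, with a 95% interval of -0.15 to 0.24, and for 4 against 25 kPa it was -0.05, with an interval of -0.24 to 0.14. The 4 kPa libraries all lay below the 25 kPa libraries, by a difference of means of 50.9 against 52.7 CPM.

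SMAD7 was the gene of the 10 for which every 4 kPa library lay above every library of the other gels, although no comparison passed the test. SMAD7 (ENSG00000101665, chromosome 18 from 48919853 to 48950711, minus strand), an inhibitory SMAD that blocks the type I receptor and is itself induced by TGF-beta, had 46.0, 43.0 and 45.0 CPM on 0.5 kPa, 50.8, 55.1 and 61.4 CPM on 4 kPa, and 48.8, 44.5 and 46.4 CPM on 25 kPa. The 0.5 and 25 kPa libraries overlapped. The log2 fold change was -0.32 for 0.5 against 4 kPa (SE 0.08, edgeR adjusted p = 0.0657) and 0.26 for 4 against 25 kPa (SE 0.08, edgeR adjusted p = 0.146), so neither passed. The first of these was called by DESeq2 (adjusted p = 0.0235), by edgeR with no count filter (adjusted p = 0.0253) and by edgeR without 4 kPa replicate 1 (-0.39, adjusted p = 0.0467). Set against the midpoint of 0.5 and 25 kPa, the log2 fold change of SMAD7 on 4 kPa was 0.29 (SE 0.07, edgeR adjusted p = 0.101, unadjusted p = 0.00108). In that comparison 0 of the 10 genes were called, against 0.637% of all genes, 1 of the 10 (SMAD7) had an unadjusted p under 0.05, and DESeq2 called SMAD7 alone (adjusted p = 0.0304).

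SMAD3 (ENSG00000166949, chromosome 15 from 67063763 to 67195195, plus strand), the SMAD that carries the signal to DNA, had 76.5, 78.0 and 95.1 CPM on 0.5 kPa, 81.9, 77.6 and 83.6 CPM on 4 kPa, and 68.1, 72.2 and 72.2 CPM on 25 kPa. The 25 kPa libraries all lay below those of the other gels, and the 0.5 and 4 kPa libraries overlapped. It did not pass the test, with a log2 fold change of 0.23 for 0.5 against 25 kPa (SE 0.09, edgeR adjusted p = 0.123) and of 0.19 for 4 against 25 kPa (SE 0.09, edgeR adjusted p = 0.312).

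SKIL (ENSG00000136603, chromosome 3 from 170357678 to 170396835, plus strand) encodes SnoN, a co-repressor that binds SMAD complexes on DNA. It had 92.9, 99.9 and 112 CPM on 0.5 kPa, 100.3, 94.2 and 102 CPM on 4 kPa, and 89.9, 103 and 100.1 CPM on 25 kPa. The gels overlapped, and the 95% interval of the log2 fold change for 0.5 against 25 kPa was -0.12 to 0.24. TGFBI (ENSG00000120708, chromosome 5 from 136028895 to 136063818, plus strand), the secreted matrix protein, had 129, 134 and 107 CPM on 0.5 kPa, 128, 145 and 110.1 CPM on 4 kPa, and 119, 109.7 and 121 CPM on 25 kPa. Its lowest value on 0.5 kPa and on 4 kPa came from replicate 3, the libraries in which INHBA was highest. For 0.5 against 25 kPa its 95% interval was -0.15 to 0.31.

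**Figure D3:**
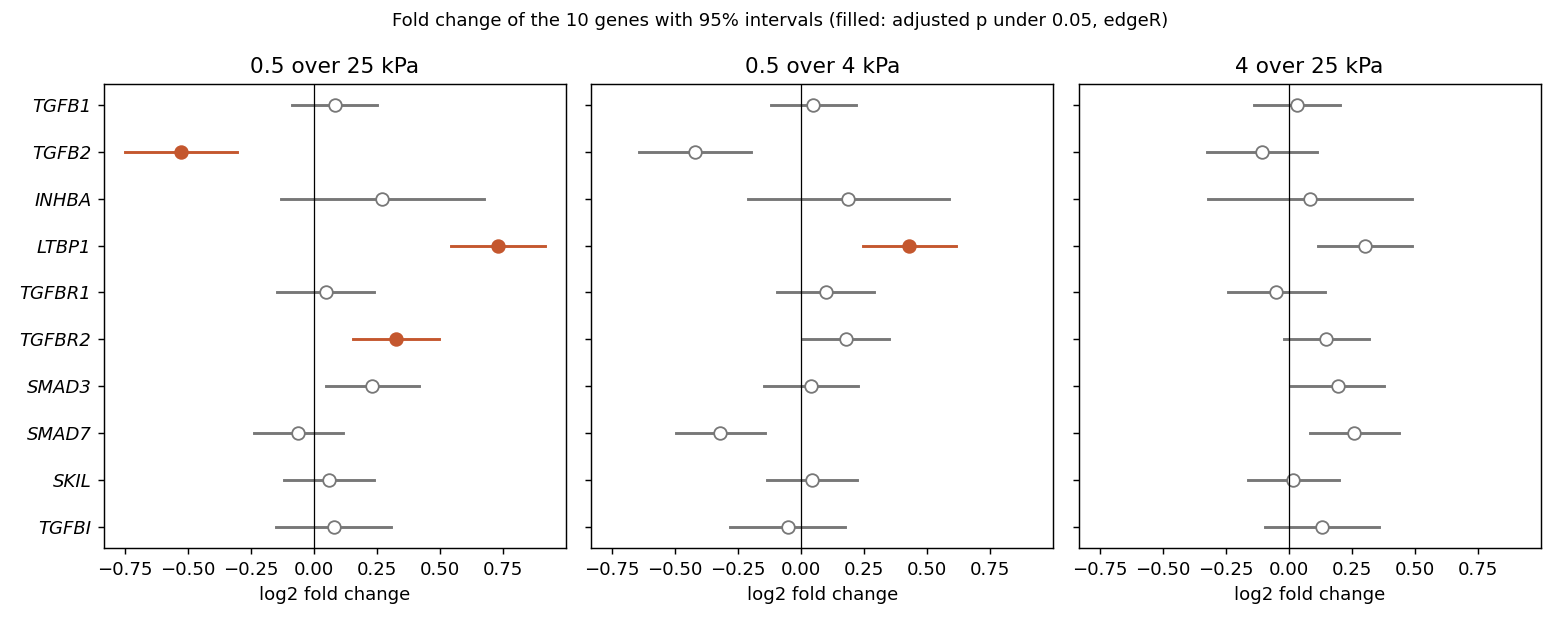
Log2 fold changes (horizontal axis, softer over stiffer gel) of the 10 genes with 95% intervals from edgeR, in 3 panels for 0.5 over 25 kPa, 0.5 over 4 kPa and 4 over 25 kPa; filled points had an adjusted p under 0.05. Filled points are TGFB2 (-0.53), LTBP1 (0.73) and TGFBR2 (0.33) in the first panel and LTBP1 (0.43) in the second.

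By FPKM, which corrects for gene length, the order of the 10 genes over the 9 libraries was TGFB1 (mean 25.0, range 22.6 to 27.4), TGFBR2 (24.7, 20.4 to 28.7), TGFBI (15.7, 13.9 to 18.7), SMAD7 (13.3, 11.7 to 16.8), SKIL (12.8, 11.1 to 14.6), SMAD3 (8.60, 7.21 to 10.6), TGFBR1 (7.69, 7.06 to 9.28), LTBP1 (6.98, 4.93 to 9.36), INHBA (3.39, 2.66 to 4.57) and TGFB2 (3.21, 2.37 to 3.81). The ranges of neighbours in this order overlapped except between TGFBR2 and TGFBI, between SKIL and SMAD3, and between LTBP1 and INHBA. TGFB1 lay above 88.8% and TGFB2 above 45.8% of the tested genes by mean FPKM. TGFBR2 had a higher FPKM than its partner TGFBR1 in every library, and TGFB1 than TGFB2.

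Around the 10 genes, 98 further genes of the pathway were in the table, of which 89 were tested. On 0.5 against 25 kPa, 11 of them were higher and 7 lower, which is 20.2% beside the 6.69% of all genes, with a median log2 fold change of 0.04. On 0.5 against 4 kPa, 5 were higher and 5 lower (11.2%, median 0.00), and on 4 against 25 kPa 5 were higher and 0 lower (5.62%, median 0.05). The counts lay mostly among genes that respond to TGF-beta, many of which respond to other signals as well. In fits without 1 library, 10 of the 18, 7 of the 10 and 1 of the 5 calls held every time.

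LTBP3 and LTBP4, which also bind latent TGF-beta, were called in the same direction as LTBP1. Of 14 tested genes that store or activate the ligand, LTBP3 and LTBP4 were higher and THBS1 was lower on 0.5 than on 25 kPa. That is 21.4% of the list beside 6.69% of all genes, and the list had a median of 0.12. LTBP3 had 79.2, 83.0 and 84.9 CPM on 0.5 kPa, 64.1, 64.9 and 70.9 CPM on 4 kPa, and 53.8, 47.1 and 52.5 CPM on 25 kPa, with no overlap between any gels. It was higher on 0.5 than on 25 kPa (log2 fold change 0.69, SE 0.08, edgeR adjusted p = 0.000176) and on 4 than on 25 kPa (0.38, SE 0.08, adjusted p = 0.04), and the second call held in 2 of 9 fits without 1 library.

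LTBP4 had 28.0, 29.6 and 34.4 CPM on 0.5 kPa, 26.7, 26.6 and 27.3 CPM on 4 kPa, and 22.6, 22.9 and 21.1 CPM on 25 kPa. Its log2 fold change for 0.5 against 25 kPa was 0.47 (SE 0.09, edgeR adjusted p = 0.00744), and without 25 kPa replicate 4 the adjusted p was 0.057. LTBP2, a related matrix protein chosen after its values were seen, had a mean and SD (n = 3) of 17.5 ± 0.68 CPM on 0.5 kPa, 16.6 ± 1.0 CPM on 4 kPa and 14.3 ± 2.3 CPM on 25 kPa. It did not pass the test for 0.5 against 25 kPa (log2 fold change 0.29, edgeR adjusted p = 0.14).

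THBS1 encodes thrombospondin 1, which can release TGF-beta from its latent complex. It had 1688, 1680.3 and 1379 CPM on 0.5 kPa, 2414, 2332 and 1727 CPM on 4 kPa, and 2058, 2361 and 2256 CPM on 25 kPa, with replicate 3 lowest on both softer gels. It was lower on 0.5 than on 25 kPa (log2 fold change -0.49, SE 0.12, edgeR adjusted p = 0.0301), a call that held in 3 of 9 fits without 1 library.

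Of 10 tested other ligands, TGFB3 alone was called between 0.5 and 25 kPa. That is 10% of the list, near the 6.69% of all genes. TGFB3, the remaining TGF-beta isoform, was low, with 3.16, 3.29 and 2.01 CPM on 0.5 kPa, 2.25, 2.11 and 1.61 CPM on 4 kPa, and 1.26, 1.32 and 1.50 CPM on 25 kPa. It was 2.07-fold higher on 0.5 than on 25 kPa (log2 fold change 1.05, SE 0.24, edgeR adjusted p = 0.019), opposite in sign to TGFB2, and the call held in 4 of 9 fits without 1 library. Of 11 tested other receptors, 1 was called, which is 9.09% and also near the share of all genes. This gene, BMPR1B, a type I receptor for bone morphogenetic proteins, was higher (log2 fold change 0.54, SE 0.15, edgeR adjusted p = 0.0478). It had 13.6, 16.4 and 14.0 CPM on 0.5 kPa, against 9.60, 10.3 and 10.3 CPM on 25 kPa, and the call held in 2 of 9 fits without 1 library. Of 8 tested other SMADs and SMAD partners, 0 passed in edgeR for 0.5 against 25 kPa, against 6.69% of all genes, and their median was -0.02. There 1 (SMAD9, edgeR adjusted p = 0.0658, picked out after its value was seen) had an unadjusted p under 0.05, and DESeq2 called 0. In other settings 1 of the 8 was called higher, in fits that called 5.75% to 11.8% of all genes. These settings were upper-quartile scaling (6.44%), limma on FPKM with a minimum (5.89% and 5.75%) and only the 6 libraries compared (8.76%). The same count came without 4 kPa replicate 3 (11.8%) and without both replicate 3 libraries (11.7%).

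**Figure D4:**
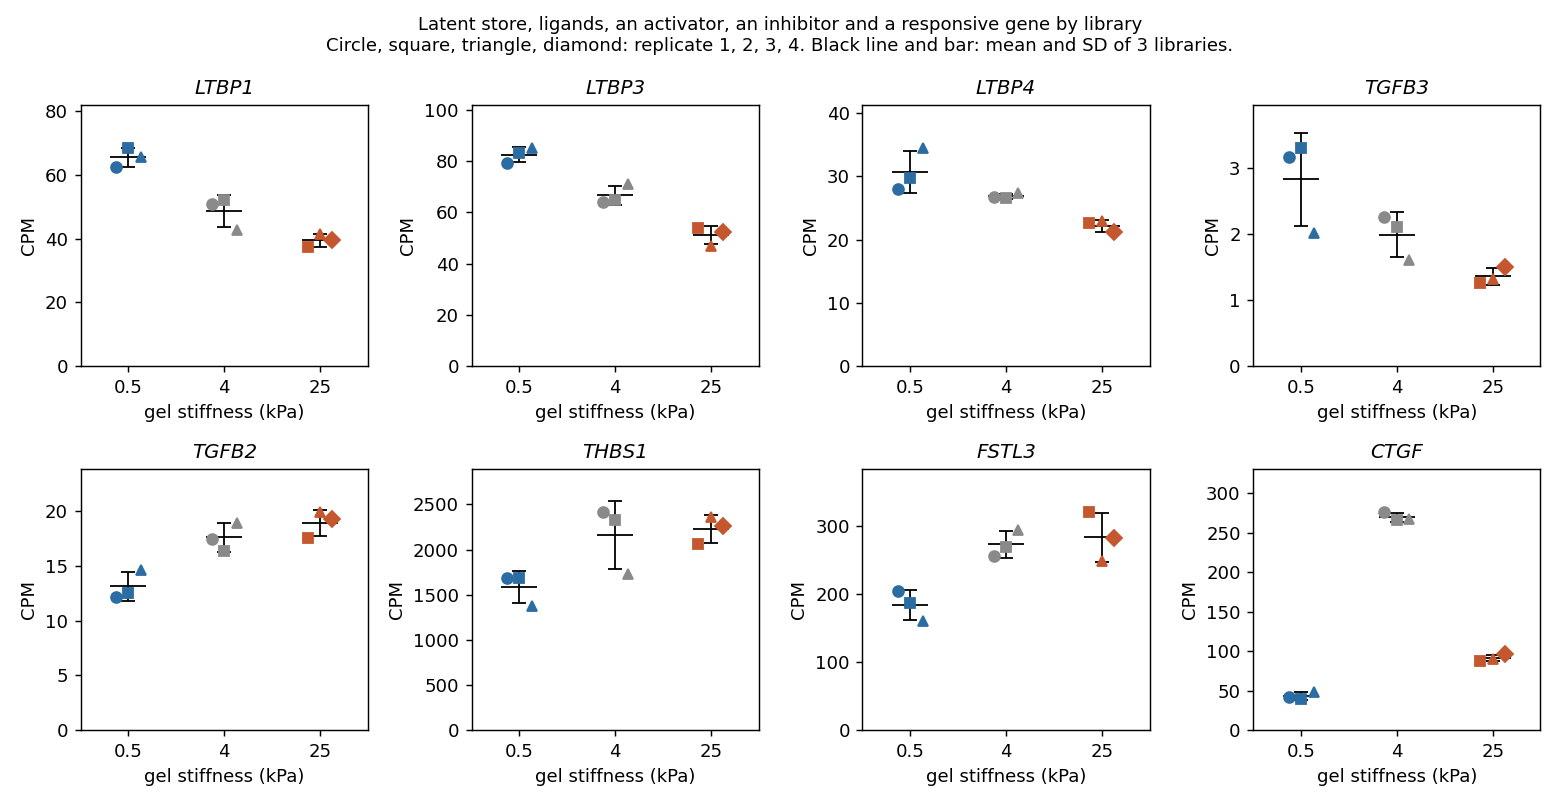
Level (CPM, vertical axis from 0) of LTBP1, LTBP3, LTBP4, TGFB3, TGFB2, THBS1, FSTL3 and CTGF in every library on 0.5, 4 and 25 kPa gels, with the mean and SD of 3 libraries. The LTBP genes lie highest on 0.5 kPa (LTBP3 79.2 to 84.9 CPM) and lowest on 25 kPa (LTBP3 47.1 to 53.8 CPM), while TGFB2, THBS1 and FSTL3 are lowest on 0.5 kPa by their means.

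Among 21 tested inhibitors, 0 were higher and 2 were lower on 0.5 than on 25 kPa, with a median of -0.05. That is 9.52% of the list, near the 6.69% of all genes. Without the replicate 3 libraries of 0.5 and 4 kPa, 1 was higher and 5 were lower, in a fit that called 11.7% of all genes. FSTL3, a secreted protein that binds activins, had 205, 188 and 161 CPM on 0.5 kPa, 256, 270.0 and 295 CPM on 4 kPa, and 321, 249 and 283 CPM on 25 kPa. It was lower on 0.5 than on 25 kPa (log2 fold change -0.62, SE 0.11, edgeR adjusted p = 0.00374) and than on 4 kPa (-0.57, SE 0.11, adjusted p = 0.0123). The first of these calls held in all 9 fits without 1 library and the second in 7. SMURF2, a ubiquitin ligase that SMAD7 brings to the receptor, had a mean and SD (n = 3) of 88.5 ± 4.8 CPM on 0.5 kPa and 108 ± 7.1 CPM on 25 kPa. It was lower on 0.5 kPa (log2 fold change -0.28, edgeR adjusted p = 0.0474), a call that held in 2 of 9 such fits. With transcript counts summed per gene the SMURF2 value was 0.01, with the sign turned.

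Among 28 tested genes known to respond to TGF-beta, calls were made in both directions. On 0.5 against 25 kPa, 7 were higher (FN1, MMP2, TGM2, HMGA2, ANGPTL4, ADAM19 and POSTN) and 4 lower (among them CTGF, TAGLN and PDGFB), which is 39.3% beside 6.69% of all genes, with a median of 0.15. MMP2, a gelatinase, had 107, 117 and 104 CPM on 0.5 kPa, 58.2, 66.7 and 58.7 CPM on 4 kPa, and 43.0, 44.2 and 45.3 CPM on 25 kPa (0.5 against 25 kPa, log2 fold change 1.31, SE 0.08, edgeR adjusted p = 4e-06). TGM2, a transglutaminase that crosslinks matrix proteins and has been linked to the release of latent TGF-beta, had 50.4, 53.2 and 55.7 CPM on 0.5 kPa, 30.4, 36.6 and 34.4 CPM on 4 kPa, and 27.4, 24.1 and 24.7 CPM on 25 kPa (log2 fold change 1.06, SE 0.09, edgeR adjusted p = 2.7e-05). TAGLN, an actin-binding protein of smooth muscle, ran the other way, with 60.5, 52.5 and 51.5 CPM on 0.5 kPa, 106, 108 and 133 CPM on 4 kPa, and 149.6, 121 and 126 CPM on 25 kPa (log2 fold change -1.27, SE 0.11, edgeR adjusted p = 3e-05). The calls for MMP2, TGM2, TAGLN, CTGF, FN1, HMGA2 and ANGPTL4 on 0.5 against 25 kPa held in all 9 fits without 1 library.

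CTGF, a secreted matricellular protein that also responds to YAP, was highest on the middle gel. It had 41.9, 39.5 and 48.7 CPM on 0.5 kPa, 276, 266 and 267 CPM on 4 kPa, and 87.4, 90.6 and 96.0 CPM on 25 kPa. On 4 against 25 kPa the responsive genes CTGF (log2 fold change 1.56), JUNB, MMP2 and BHLHE40 were higher in edgeR and 0 were lower. That is 14.3% of the list beside 0.9% of all genes, with a median of 0.22. The call for CTGF held in all 9 fits without 1 library, that for BHLHE40 in 7, MMP2 in 5 and JUNB in 4. The 4 kPa libraries of BHLHE40 (172 to 177 CPM), a transcriptional repressor, and of JUNB (128 to 172 CPM), a subunit of AP-1, also lay above all libraries of the other gels. Against the midpoint of 0.5 and 25 kPa, 4 of the 28 were called higher on 4 kPa, among them CTGF, TAGLN and BHLHE40, which is 14.3% beside 0.637% of all genes. On 0.5 against 4 kPa, 5 were higher (FN1, ANGPTL4, MMP2, HMGA2 and TGM2) and 4 lower (among them CTGF, TAGLN and BHLHE40), which is 32.1% beside 2.05% of all genes, with a median of -0.10.

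**Figure D5:**
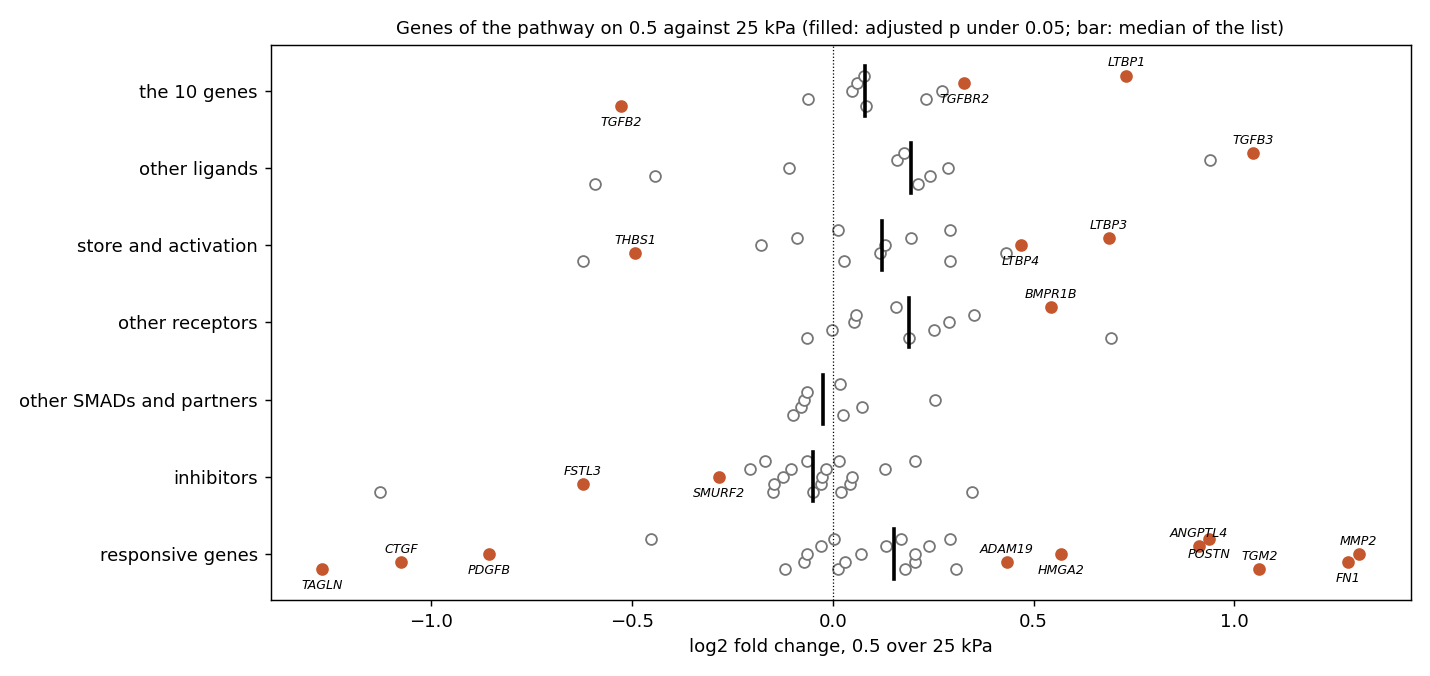
Log2 fold change for 0.5 over 25 kPa (horizontal axis) of the tested genes in the group of 10 and in 6 further lists of the pathway, without 1 responsive gene that is not reported here, 1 row a list, with filled, named points at an adjusted p under 0.05 in edgeR and a bar at each list's median. Called genes lie on both sides of 0 among the responsive genes, from TAGLN at -1.27 to MMP2 at 1.31, and the row of other SMADs and partners holds none.

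Over the 9 libraries, the genes with a pattern most like that of LTBP1, by Pearson's r of log2 CPM among 11242 genes of at least 5 CPM, were CA12 (r = 0.993), GBP5 (0.991), SH2B3 (0.985), FAM171B (0.984) and C14orf132 (0.982). Within the group of 10, LTBP1 went with TGFBR2 (r = 0.96) and against TGFB2 (r = -0.89), while TGFBR2 and TGFB2 had r = -0.82. These are descriptions over 9 libraries that share the 3 gels, in which any genes that differ between gels correlate. The study also names the breast line MCF-7, and CA12 is on a list of 6 genes known from that line. That list summed to 308 to 336 CPM on 0.5 kPa, 245 to 274 CPM on 4 kPa and 216 to 234 CPM on 25 kPa. In edgeR 3 of its 4 tested genes (CA12, GREB1 and ESR1) were higher on 0.5 than on 25 kPa, beside 6.69% of all genes called. Its members TFF1 and GATA3 were at most 0.0973 and 0.243 CPM in any library. The part of this list in the difference of LTBP1 was not tested.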

How the data were processed

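RNA of SKOV-3 cells on 0.5, 4 and 25 kPa gels was sequenced in 3 libraries per gel. Build hg38 and the tools bcl2fastq, HISAT2 2.1.0 and FastQC 0.11.5 are listed in the submitters' processing notes, without their roles. The sources used here do not give the program, strand setting or annotation behind the counts. For each gene the authors deposited a whole-number count and an FPKM value, which were checked to equal the count over the column total and over 1 length per gene, in 6690 of 6690 genes above 500 counts (coefficient of variation at most 0.001). The authors also deposited estimated counts and FPKM per transcript. The transcript counts sum to 3.57 times the gene counts and entered 1 alternative, summed per gene. In the tables, 3 columns of per-sample values matched no sample and were not used. The 0.5 kPa columns carry a name that writes the stiffness as a fraction and were assigned by their titles. The study's methods name a TruSeq kit and the labels an NEB kit.

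The counts were filtered with filterByExpr, scaled by TMM and fitted with edgeR 4.0.16 (robust quasi-likelihood, R 4.3.3) over 9 libraries. Each comparison was adjusted over 16335 genes. CPM values use the TMM-scaled totals, and log2 CPM a prior count of 2. Alternatives used DESeq2 1.42.0, limma 3.58.1 on log2(FPKM + 1) and log2(FPKM + 0.1) (mean FPKM of at least 1, or no minimum), upper-quartile or RLE scaling, no filter on counts, a minimum of 10 counts per library, a block for the replicate number, the 6 libraries compared, transcript sums, a 2-fold change with unadjusted p under 0.05, and each library left out. Leaving out both replicate 3 libraries of 0.5 and 4 kPa, and a fit with no robust estimate, were chosen after seeing the data. The edgeR, DESeq2 and limma steps were tested on simulated counts.

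The 10 genes and the lists were chosen with earlier results of these data known. Named are the 10 genes, every other pathway gene called in a pairwise comparison (values for up to 4 per list with the smallest adjusted p), 1 of them not reported here but kept in the counts and medians, and the 5 genes most correlated with the gene of largest range between gels. Library totals hardly differed, so precision depends on a gene's own counts and on its spread between libraries. The counts of the 10 genes were 3015 (TGFB2) to 22324 (TGFBI) over 9 libraries. Promoter sequences are from RefSeq (GRCh38.p14), matched for all 10 genes. Python 3.11.15 with pandas 2.3.3 and matplotlib 3.10.9 made the figures.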

Additional observations from a re-analysis of the deposited data

How the results depend on the processing

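For 0.5 against 25 kPa, 3 of the 10 genes were also called by DESeq2 and under RLE and upper-quartile scaling. The same count came with no count filter and by limma on FPKM with a minimum. These fits called 4.64% to 8.87% of all genes. The count was 1 by limma with no minimum (1.09% of all genes) and 0 from transcript counts summed per gene (0.481%). It was also 0 under a 2-fold change with unadjusted p under 0.05 (2.28%). Without single libraries the count was 1 to 3 (2.2% to 11.8% of all genes), lowest without 25 kPa replicate 4 (2.2%). For 0.5 against 4 kPa the count of 1 became 3 with DESeq2 (3.16% of all genes called) and 3 with no count filter (1.96%). It became 3 without both replicate 3 libraries (5.43%). The count was 0 by limma with no minimum (0.472%) and with transcript sums (0.169%). It was also 0 under the 2-fold rule (1.07%) and with only the 6 libraries compared (1.19%). Without single libraries it was 0 to 2 (0.811% to 3.51%), and it was 0 without 0.5 kPa replicate 2 (0.811%). For 4 against 25 kPa the count of 0 became 3 (LTBP1, TGFBR2 and TGFBI) without both replicate 3 libraries, where 6.78% of all genes were called. Without single libraries it was 0 to 1 (0.15% to 1.81%), with 1 (LTBP1) without 4 kPa replicate 3 (1.81%). For 4 kPa against the midpoint it was 1 with DESeq2 (1.34% of all genes) and 1 with no count filter (0.801%).

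Of the other pathway genes, the 18 calls for 0.5 against 25 kPa became 9 by limma with no minimum (1.09% of all genes). They became 3 with transcript sums (0.481%) and 7 under the 2-fold rule (2.28%). Leaving out single libraries gave 10 to 20 calls, in fits that called 2.2% to 11.8% of all genes. Of these, the fit lacking 25 kPa replicate 4 gave 10 (2.2%), and that lacking 0.5 kPa replicate 2 gave 11 (2.79%). The 10 calls for 0.5 against 4 kPa became 2 with transcript sums (0.169% of all genes called) and 2 under the 2-fold rule (1.07%). The 5 calls for 4 against 25 kPa became 8 with no count filter (1.37% of all genes called) and 1 with transcript sums (0.0793%). They became 2 by limma with no minimum (0.0944%), 1 under the 2-fold rule (1.03%) and 3 with the 6 libraries (0.26%). Without both replicate 3 libraries they became 11 (6.78%), and without single libraries 1 to 7 (0.15% to 1.81%). The count was 1 without 4 kPa replicate 2 (0.18%) or 25 kPa replicate 3 (0.174%). The causes were not tested.

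With the replicate number as a block, 1, 0 and 0 of the 10 genes were called in the 3 pairwise comparisons, and 8, 7 and 1 of the other pathway genes, while calls over all genes were 1.32%, 0.894% and 0.0979%. Same-numbered libraries of different gels had deviations from their gel means with correlations of -0.23 to 0.14. Differently numbered ones had correlations of -0.23 to 0.23. With 3 libraries per gel, these values cannot show whether the numbers pair the samples.

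Uncalled values near 0 changed sign in some fits. Without both replicate 3 libraries, log2 fold changes were -0.0591 (TGFBR1) and -0.0090 (SKIL) for 0.5 against 25 kPa, -0.0304 (TGFBR1), -0.0454 (SMAD3) and -0.0125 (SKIL) for 0.5 against 4 kPa, and -0.1839 (INHBA) for 4 against 25 kPa. Without single libraries they ranged from -0.0595 to 0.127 (TGFBR1) and -0.0095 to 0.1206 (SKIL) for 0.5 against 25 kPa. For 0.5 against 4 kPa the ranges were -0.0226 to 0.1774 (TGFBR1), -0.0728 to 0.0954 (SMAD3), -0.0394 to 0.104 (SKIL) and -0.1514 to 0.0405 (TGFBI), and for 4 against 25 kPa -0.0403 to 0.0706 (SKIL) and -0.1944 to 0.2384 (INHBA). By limma on FPKM, TGFBR1 for 4 against 25 kPa was 0.0005 (pseudocount 1, with or without a minimum) and 0.0006 (pseudocount 0.1). SMURF2, which was called, was 0.0119 for 0.5 against 25 kPa with transcript sums. Depth limits TGFB3 most among the pathway genes called, at a few CPM. The called marker genes VWF, COL3A1 and PECAM1 were lower still, with 74, 149 and 152 counts over 9 libraries.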
